A study of Danio rerio with 28 samples.

Results

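The genes described here are the enzymes and regulators of glycolysis in whole zebrafish larvae exposed to cadmium (Cd), a toxic metal, or PCB126, a dioxin-like polychlorinated biphenyl. They were chosen by symbol from the deposited count table: hexokinases, glucose-6-phosphate isomerases, phosphofructokinases, the bifunctional pfkfb enzymes, aldolases and every later step to lactate dehydrogenase, plus phka1b and slc16a3. The rule found 40 of the 38318 genes in the table, and 38 of the 40 had enough counts to be tested. The other two, eno1a with 15 counts and pfkmb with 32 counts over all libraries, fell below the filter on low counts. The 40 genes together held between 0.961% and 1.25% of the counts of a library.

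Glycolysis splits glucose into pyruvate and yields ATP without oxygen. Fast skeletal muscle, which makes up much of a swimming larva, depends on it for bursts of movement and draws the sugar from its own glycogen. The flux is set mainly at hexokinase, phosphofructokinase and pyruvate kinase, and pyruvate that is not oxidised leaves the cell as lactate. Vertebrates hold several isoforms of most steps, with muscle, liver and brain or heart types, and zebrafish often keep a pair of copies (a and b) of each. The tissue types named below are those of the mammalian orthologs.

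RNA was taken at day 5 after fertilization from whole larvae of the wild-type AB strain. The 7 groups had 4 libraries each: unexposed controls, Cd at 2.4, 12 or 24 ug/L, and PCB126 at 0.08, 0.4 or 0.8 nM, with exposure from day 1. All exposed groups were compared with the same 4 controls, whose library names carry the Cd prefix. No vehicle for PCB126 is named, so the PCB126 series and its exposure cannot be told apart in these comparisons. The labels do not say whether replicate libraries stem from different clutches or dishes, so the p-values reflect only the variation among these libraries, which may be technical. In RNA from whole larvae, a change in the number of cells of a tissue and a change in RNA per cell cannot be told apart.

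Libraries held 11893345 to 20770004 counts, with a median of 14251922. A pair of libraries diverged from the others: control replicate 4 and Cd 2.4 ug/L replicate 3 had TMM scaling factors of 0.646 and 0.687 against 0.993 to 1.08 in the other 26 libraries. Ribosomal protein genes took 12.4% and 12.8% of their counts, against 5.80 to 6.79% elsewhere. Glycolysis genes also lay apart there: in control replicate 4, 26 of the 38 tested genes lay above all 3 other controls and 11 lay below them. In Cd 2.4 ug/L replicate 3, 22 lay above and 11 below the rest of the group. The matching shares of all tested genes are not given, so these counts do not set glycolysis genes apart from other genes. Summed fast muscle markers stood at 184423 and 157033 CPM (counts scaled by library total and TMM factor) in the pair, against 80849 to 82957 CPM in the other controls. The positions above and below the other libraries also rest on CPM. By TPM, a level scaled by gene length, control replicate 4 lay below the other controls at aldoaa and pgk1. The values were 512 against 528 to 626 TPM and 188 against 206 to 230 TPM. The numbers of calls are therefore given with all 28 libraries and again without this pair, and its part in the results with all libraries was not tested.

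Cd at 24 ug/L raised phosphofructokinase pfkma, its activator enzyme pfkfb3, the lactate exporter slc16a3 and the glycogen regulator phka1b, and lowered no glycolysis gene past the threshold. With all 28 libraries these 4 of the 38 tested genes were called at an edgeR adjusted p below 0.05, beside 0.922% of all 25393 tested genes, 0.744% higher. Of the 4, phka1b and slc16a3 had been added to the rule by name. An edgeR fit of only the groups compared called pfkma and pfkfb3 but neither phka1b nor slc16a3. The members were chosen with earlier results of these data known, so the counts are not independent of them. Without the pair, 17 of the 38 were called, all higher, beside 5.08% of all genes, 3.63% higher. The median log2 fold change of the 38 genes was 0.08 with all libraries and 0.24 without the pair, and that of all genes was -0.02 and -0.00. At PCB126 0.8 nM genes were called in both directions: 5 genes with all libraries, 2 higher and 3 lower, beside 3.49% of all genes, 2.02% higher and 1.47% lower. Without the pair 9 were called, 4 higher and 5 lower, beside 8.73%, 5.37% higher and 3.37% lower. The median of the 38 genes at that dose was -0.11 with all libraries and 0.03 without the pair.

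The lower doses gave smaller counts. At Cd 12 ug/L, pfkfb3 was called higher with all libraries, beside 0.173% of all genes, 0.161% higher, and pfkma and pfkfb3 higher without the pair, beside 0.797%, 0.703% higher. At Cd 2.4 ug/L no glycolysis gene was called by edgeR, DESeq2 or limma with all libraries, beside 0.0394% of all genes, and 4 had an unadjusted p below 0.05. Without the pair the count there was also 0, beside 0.133% of all genes, with 10 below an unadjusted p of 0.05. At PCB126 0.08 nM none was called by any of the 3 tools with all libraries, beside 0.386% of all genes, with 5 below an unadjusted p of 0.05, and 4 were called without the pair, 3 higher and 1 lower, beside 7.83%, 3.57% higher and 4.26% lower. At PCB126 0.4 nM pfkfb1 was called lower with all libraries, beside 1% of all genes, 0.366% lower, and 4 genes without the pair, 3 higher and 1 lower, beside 3.57%, 2.48% higher and 1.09% lower. A test of any difference among the 7 groups called 8 of the 38 genes with all libraries, beside 3.57% of all genes: pfkma, pfkfb3, gpib, slc16a3, pfkfb1, phka1b, pfkfb4a and pfkfb4b. It called 24 without the pair, beside 18.9%.

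**Figure D1:**
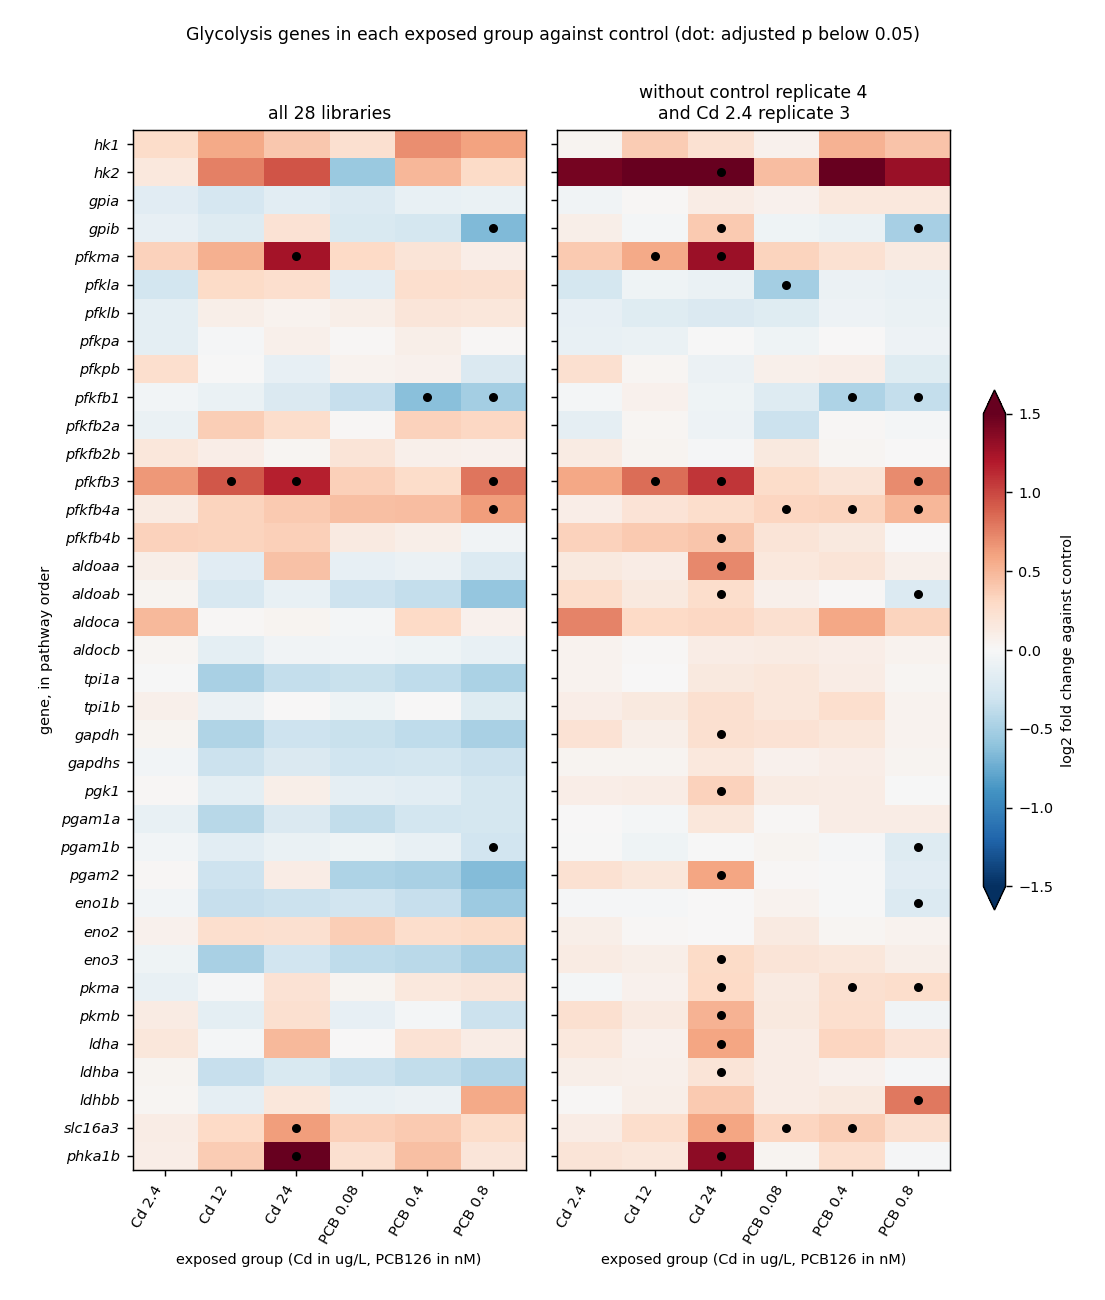
Log2 fold change of tested glycolysis genes (rows, in pathway order) in each exposed group against control (columns), with all 28 libraries on the left and without control replicate 4 and Cd 2.4 ug/L replicate 3 on the right. Dots mark an edgeR adjusted p below 0.05. At Cd 24 ug/L 4 genes carry a dot on the left and 17 on the right.

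The first step traps glucose in the cell by phosphorylation, and hexokinase RNA was scarce. Summed hk1 and hk2 stood at 6.18 ± 1.84 TPM (SD, n = 4), a level scaled by gene length, in controls. The gene hk2, the hexokinase of insulin-sensitive muscle in mammals, had 1.43, 0.905, 1.2 and 6.39 CPM in the 4 controls and 6.89, 1.34, 4.15 and 5.98 CPM at Cd 24 ug/L. The groups overlapped, and in CPM control replicate 4 lay above 3 of the 4 Cd libraries of that group. With all libraries the log2 fold change was 0.94 ± 0.60 (SE, adjusted p = 0.523). Without the pair it was 1.96 ± 0.56 (adjusted p = 0.0391), a call that held in 5 of 11 further single omissions. The broadly used hk1 ranged from 5.84 to 22.7 CPM over the 28 libraries and was called in none of the 9 comparisons.

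Glucose-6-phosphate isomerase, the second step, is encoded by gpia and gpib. The gene gpib (chromosome 18, 402048 to 423921, plus strand, GRCz11) fell at the top dose of PCB126, and not at that of Cd. It stood at 60.5, 53.0, 61.7 and 86.6 CPM in controls, 72.6, 91.7, 70.2 and 70.3 CPM at Cd 24 ug/L, and 35.6, 41.3, 43.6 and 45.2 CPM at PCB126 0.8 nM. In CPM all PCB126 0.8 nM libraries lay below all controls, and all Cd 24 ug/L libraries lay above controls 1 to 3. By TPM, control replicate 4 stood at 50.1, below PCB126 0.8 nM replicate 3 at 50.6. The Cd 24 ug/L libraries, at 80.3 to 104 TPM, lay above every control, the highest at 73.1 TPM. The gene fell by 0.66 ± 0.13 on the log2 scale at PCB126 0.8 nM (adjusted p = 0.00342), and by 0.49 ± 0.11 without the pair (adjusted p = 0.00374). With all libraries limma on log2(TPM + 1) did not call this fall (-0.41, adjusted p = 0.278). Nor did an edgeR fit of only the groups compared (adjusted p = 0.206). At Cd 24 ug/L the log2 fold change was 0.22 ± 0.13 (adjusted p = 0.485) with all libraries and 0.39 ± 0.11 (adjusted p = 0.033) without the pair, the latter called in 7 of 11 further omissions. In the other groups gpib had 64.2, 58.4, 54.3 and 63.9 CPM at Cd 2.4 ug/L and 57.3, 53.5, 57.5 and 59.7 CPM at Cd 12 ug/L. At PCB126 0.08 nM it had 55.7, 53.3, 51.9 and 61.8 CPM, and at 0.4 nM 60.8, 62.1, 51.5 and 43.0 CPM, both overlapping the controls. Its copy gpia, with 189 to 374 CPM, was called in none of the 9 comparisons.

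Muscle also feeds the pathway from glycogen, and phka1b (chromosome 21, 30600337 to 30648132, minus strand) encodes the muscle-type regulatory subunit of phosphorylase kinase, the enzyme that switches glycogen phosphorylase on. Its level was low: 6.60, 4.52, 4.55 and 2.28 CPM in controls and 13.9, 18.0, 12.2 and 8.83 CPM at Cd 24 ug/L. Every library at Cd 24 ug/L lay above every control. The other groups lay between 1.23 and 8.61 CPM, with Cd 2.4 ug/L at 8.61, 3.74, 1.23 and 5.48 CPM and Cd 12 ug/L at 6.39, 4.89, 7.67 and 4.74 CPM. The PCB126 groups had 4.46, 5.48, 4.47 and 6.92 CPM at 0.08 nM, 6.84, 7.24, 5.65 and 5.14 CPM at 0.4 nM, and 4.29, 5.86, 4.03 and 6.42 CPM at 0.8 nM. The rise at Cd 24 ug/L was 1.55 ± 0.35 on the log2 scale, 2.92-fold (adjusted p = 0.0304), and 1.34 ± 0.26 without the pair (adjusted p = 0.00219). An edgeR fit of only the groups compared did not call this rise (adjusted p = 0.323). The call with all libraries ended in 6 of the 28 single omissions, those of control replicates 2, 3 and 4 and of Cd 24 ug/L replicates 1, 2 and 3, with log2 fold changes of 1.34 to 1.78 over the omissions and a highest adjusted p of 0.144.

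Phosphofructokinase commits the sugar to glycolysis, and its muscle-type gene pfkma (chromosome 23, 27553786 to 27571667, minus strand) rose with Cd. It stood at 77.9, 59.7, 82.1 and 80.0 CPM in controls, 99.7, 89.3, 92.5 and 98.9 CPM at Cd 2.4 ug/L, 112, 105, 110 and 108 CPM at Cd 12 ug/L, and 165, 215, 171 and 159 CPM at Cd 24 ug/L. The 4 groups did not overlap in CPM: every library of a dose lay above every library of the dose before it. In the PCB126 groups it had 85.3, 86.2, 79.4 and 117 CPM at 0.08 nM, 85.6, 93.3, 88.6 and 73.8 CPM at 0.4 nM, and 68.2, 87.0, 81.0 and 84.5 CPM at 0.8 nM, overlapping the controls at each dose. The log2 fold change against control was 0.34 ± 0.12 at Cd 2.4 ug/L (adjusted p = 0.739), 0.54 ± 0.12 at 12 ug/L (adjusted p = 0.0675) and 1.25 ± 0.12 at 24 ug/L (adjusted p = 8.82e-07), or 2.37-fold at the top dose. Without the pair the 3 values were 0.39 ± 0.13, 0.57 ± 0.12 and 1.28 ± 0.12, with adjusted p of 0.251, 0.0223 and 3.92e-07. Between the ends of the Cd series, pfkma was 0.90 ± 0.12 higher at 24 than at 2.4 ug/L (adjusted p = 0.000506). Control replicate 4, at 80.0 CPM, lay within the range of the other controls for this gene, but this rests on the scaling. By TPM it stood at 27.3 against 42.15 to 57.2 in the other controls. Cd 2.4 ug/L replicate 3 stood at 32.4 TPM against 59.9 to 65.2 in the rest of its group. The control and Cd 2.4 ug/L groups thus overlapped by TPM, while the Cd 12 and 24 ug/L groups stayed apart, at 72.2 to 78.1 and 107 to 144 TPM.

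The other phosphofructokinase genes did not pass the test at Cd 24 ug/L. The liver-type genes pfkla and pfklb ranged from 2.25 to 34.9 CPM and from 13.2 to 57.1 CPM over the 28 libraries. The widest gap of the divergent pair from its groups lay at pfkla, at -3.19 and -3.51 log2 units there. Without the pair pfkla was 0.51 ± 0.12 lower at PCB126 0.08 nM (adjusted p = 0.0142). The platelet-type genes pfkpa and pfkpb, at 77.0 to 131 CPM and 16.5 to 30.3 CPM, were called in none of the comparisons with all libraries or without the pair.

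The pfkfb genes encode enzymes that make and break a small sugar phosphate that activates phosphofructokinase, and in mammals the pfkfb3 product mostly makes it. The zebrafish pfkfb3 (chromosome 4, 25472505 to 25485404, minus strand) had 33.3, 32.4, 31.2 and 23.6 CPM in controls, 32.4, 49.9, 44.3 and 63.3 CPM at Cd 2.4 ug/L, 61.4, 57.4, 55.1 and 56.3 CPM at 12 ug/L, and 68.1, 68.6, 61.9 and 72.7 CPM at 24 ug/L. The upper 2 doses lay wholly above the controls and above each other in order, and Cd 2.4 ug/L was spread from the control level to that of 12 ug/L and beyond. In the PCB126 groups it had 37.2, 36.5, 42.8 and 38.7 CPM at 0.08 nM, 40.2, 35.2, 37.7 and 33.4 CPM at 0.4 nM, and 39.7, 67.2, 61.1 and 43.2 CPM at 0.8 nM. Each of the 12 PCB126 libraries lay above every control in CPM, the lowest at 33.38 against 33.29 in control replicate 1. By TPM, PCB126 0.4 nM replicates 2 and 4, at 19.93 and 19.47, lay below control replicate 1 at 19.95. The gene rose by 0.93 ± 0.16 on the log2 scale at Cd 12 ug/L (adjusted p = 0.0052), 1.17 ± 0.16 at Cd 24 ug/L (adjusted p = 0.00016) and 0.81 ± 0.16 at PCB126 0.8 nM (adjusted p = 0.0034). Without the pair these rises were 0.84 ± 0.16, 1.08 ± 0.16 and 0.71 ± 0.16, each still called. EdgeR fits of only the groups compared did not call those at Cd 12 ug/L and PCB126 0.8 nM (adjusted p = 0.118 and 0.195). With all libraries limma on log2(TPM + 1) did not call that at Cd 12 ug/L (adjusted p = 0.1003). The gene pfkfb3 was the one glycolysis gene called higher at the top dose of both chemicals with all libraries, and the top doses, whose comparisons share the controls, differed by 0.36 ± 0.16 (adjusted p = 0.489).

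**Figure D2:**
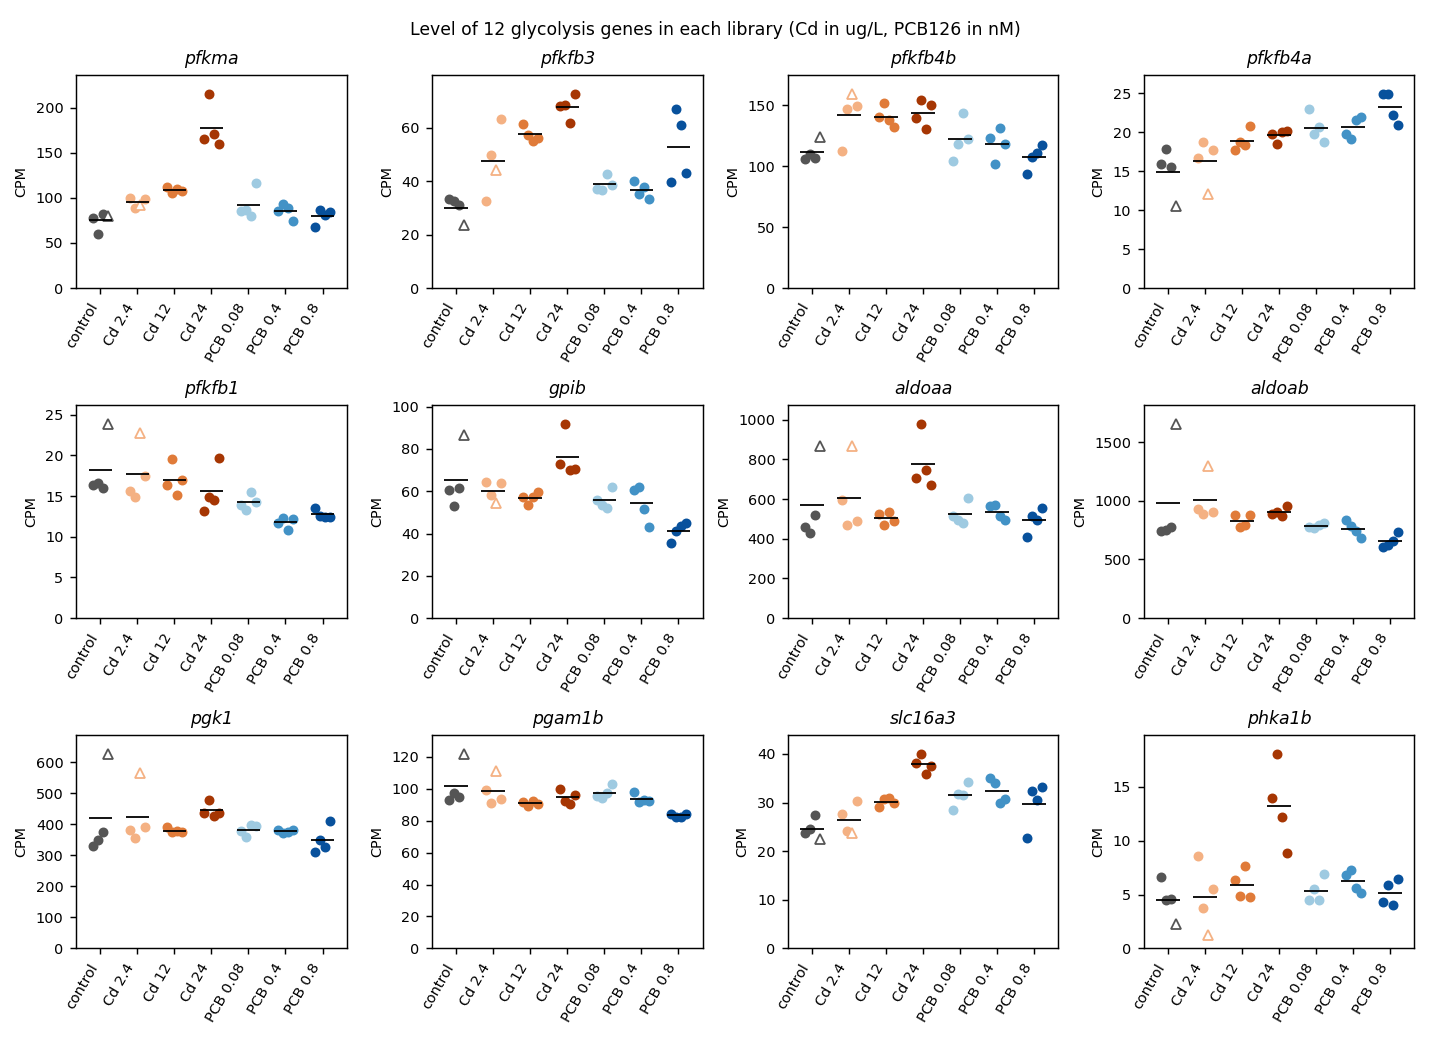
Level in CPM (vertical axes, from 0) of 12 glycolysis genes in each of the 28 libraries, by group (horizontal axes, Cd in ug/L and PCB126 in nM). Each point is a library. The Cd groups of pfkma do not overlap, from 59.7 to 82.1 CPM in controls up to 159 to 215 CPM at Cd 24 ug/L, while control replicate 4 stands far above the other controls at aldoab with 1652 CPM.

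Among the remaining pfkfb genes, pfkfb4a and pfkfb1 were called at PCB126 doses. The gene pfkfb4a stood at 15.9, 17.9, 15.5 and 10.5 CPM in controls and 24.9, 24.9, 22.2 and 20.9 CPM at PCB126 0.8 nM, with no overlap. It had 23.0, 19.7, 20.6 and 18.8 CPM at PCB126 0.08 nM and 19.7, 19.2, 21.6 and 22.0 CPM at 0.4 nM. Its rise at PCB126 0.8 nM was 0.63 ± 0.13 on the log2 scale (adjusted p = 0.00539), and without the pair all 3 PCB126 doses were called, at 0.33 ± 0.09, 0.34 ± 0.08 and 0.50 ± 0.08. With all libraries limma on log2(TPM + 1) did not call the rise at 0.8 nM (adjusted p = 0.118). Nor did an edgeR fit of only the groups compared (adjusted p = 0.270). In the Cd groups pfkfb4a had 16.6, 18.7, 12.1 and 17.7 CPM at 2.4 ug/L, 17.7, 18.7, 18.4 and 20.8 CPM at 12 ug/L, and 19.7, 18.5, 20.1 and 20.1 CPM at 24 ug/L, where the log2 fold change was 0.39 ± 0.13 (adjusted p = 0.202).

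The gene pfkfb1, the liver and muscle enzyme of mammals, moved the other way. It had 16.4, 16.6, 16.0 and 23.8 CPM in controls, 13.9, 13.3, 15.5 and 14.3 CPM at PCB126 0.08 nM, 11.7, 12.3, 10.9 and 12.2 CPM at 0.4 nM, and 13.5, 12.6, 12.4 and 12.5 CPM at 0.8 nM. Every PCB126 library lay below every control in CPM. By TPM, control replicate 4 stood at 14.3, below every library at PCB126 0.08 nM (15.5 to 17.5), and the other controls at 19.6 to 20.7. The gene fell by 0.63 ± 0.14 at PCB126 0.4 nM (adjusted p = 0.0241) and by 0.51 ± 0.14 at 0.8 nM (adjusted p = 0.0456). Without the pair the falls were 0.47 ± 0.11 and 0.36 ± 0.11, with adjusted p of 0.0102 and 0.0344. Neither fall was called by limma on log2(TPM + 1) with all libraries (adjusted p = 0.268 and 0.37). Nor was either called by edgeR fits of only the groups compared (adjusted p = 0.477 and 0.39). With all libraries the call at 0.4 nM ended in 5 single omissions, those of control replicate 4 and of each library of that group, with falls of 0.47 to 0.69 over the omissions and a highest adjusted p of 0.105. The call at 0.8 nM ended in 19 of the 28 omissions, with falls of 0.36 to 0.57 and a highest adjusted p of 0.193. It held only without control replicates 1, 2 or 3, Cd 2.4 ug/L replicates 1, 2 or 3, Cd 12 ug/L replicate 2 or Cd 24 ug/L replicates 1 or 4. The Cd groups overlapped the controls, with 15.6, 14.9, 22.7 and 17.4 CPM at 2.4 ug/L, 16.3, 19.5, 15.1 and 17 CPM at 12 ug/L, and 13.2, 14.9, 14.6 and 19.6 CPM at 24 ug/L.

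The most abundant pfkfb gene per length, pfkfb4b, held 52.3 ± 0.56% (SD, n = 3) of the summed pfkfb TPM in controls 1 to 3. It stood at 106, 110, 107 and 124 CPM in controls, 112, 147, 159 and 150 CPM at Cd 2.4 ug/L, 141, 152, 138 and 132 CPM at Cd 12 ug/L, and 139, 154, 130 and 150 CPM at Cd 24 ug/L. All libraries of the upper 2 Cd doses lay above all controls, with log2 fold changes of 0.33 ± 0.11 (adjusted p = 0.442) and 0.36 ± 0.11 (adjusted p = 0.13). At PCB126 it had 104, 118, 144 and 122 CPM at 0.08 nM, 123, 102, 131 and 118 CPM at 0.4 nM, and 93.5, 108, 111 and 118 CPM at 0.8 nM, overlapping the controls. Without the pair the rise at Cd 24 ug/L was 0.42 ± 0.10 (adjusted p = 0.0163), called in 8 of 11 further omissions. The genes pfkfb2a and pfkfb2b were called in none of the comparisons, and their counts are uncertain. The overlapping myl9a, on the opposite strand, held 586% of the counts of pfkfb2a, which matters where strand was not used. The overlapping zgc:175264 held 195% of the counts of pfkfb2b and lies on the same strand, so strand cannot separate their reads.

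Aldolase splits the sugar, and its muscle type has a pair of copies, aldoaa and aldoab. The gene aldoaa (chromosome 3, 39566999 to 39577052, plus strand) had 460, 431, 519 and 868 CPM in controls and 704, 977, 747 and 672 CPM at Cd 24 ug/L. In CPM every Cd 24 ug/L library lay above controls 1 to 3, and control replicate 4 lay above 3 of the 4. By TPM every Cd 24 ug/L library, at 782 to 1133, lay above every control, at 512 to 626. The log2 fold change was 0.44 ± 0.19 (adjusted p = 0.33) with all libraries and 0.73 ± 0.12 (adjusted p = 0.000329), 1.65-fold, without the pair. In the other groups aldoaa had 598, 468, 868 and 492 CPM at Cd 2.4 ug/L, 525, 468, 537 and 491 CPM at Cd 12 ug/L, 515, 493, 478 and 605 CPM at PCB126 0.08 nM, 565, 570, 517 and 494 CPM at 0.4 nM, and 410, 513, 494 and 556 CPM at 0.8 nM. None of these groups was called against control.

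The gene aldoab (chromosome 12, 4052180 to 4070058, minus strand) had 740, 748, 774 and 1652 CPM in controls, 925, 889, 1295 and 904 CPM at Cd 2.4 ug/L, 877, 773, 794 and 876 CPM at Cd 12 ug/L, and 885, 903, 873 and 955 CPM at Cd 24 ug/L. By TPM every Cd 24 ug/L library, at 1220 to 1303, lay above every control, at 1064 to 1143. In CPM, with control replicate 4 left in, the control mean lay above that at Cd 24 ug/L. The log2 fold change was then -0.11 ± 0.18 (adjusted p = 0.826). Without the pair its sign turned, to 0.27 ± 0.06 (adjusted p = 0.0124), called in 9 of 11 further omissions. The PCB126 groups had 781, 769, 796 and 810 CPM at 0.08 nM, 835, 783, 744 and 684 CPM at 0.4 nM, and 609, 619, 660 and 736 CPM at 0.8 nM. Every library at PCB126 0.8 nM lay below every control, with a log2 fold change of -0.58 ± 0.18 (adjusted p = 0.0772) with all libraries and a fall of 0.20 ± 0.06 without the pair (adjusted p = 0.0453). This fall was called in 3 of 11 further omissions, with a highest adjusted p of 0.159.

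The brain-type aldoca and aldocb and the triosephosphate isomerase genes tpi1a and tpi1b, which interconvert the products of that split, were called in no comparison of an exposed group with control.

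Glyceraldehyde-3-phosphate dehydrogenase and phosphoglycerate kinase carry out the first steps that yield energy. The gene gapdh had 1407, 1409, 1562 and 4114 CPM in controls, and control replicate 4 and Cd 2.4 ug/L replicate 3, at 3658 CPM, stood above the 26 other libraries. Its log2 fold change at Cd 24 ug/L was -0.31 ± 0.26 (adjusted p = 0.65) with all libraries and 0.24 ± 0.07 (adjusted p = 0.0467) without the pair, the latter called in 4 of 11 further omissions. By TPM gapdh at Cd 24 ug/L, at 715 to 832, overlapped the controls at 649 to 913. The related gapdhs, at 667 to 1549 CPM, was not called against control in any group.

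Phosphoglycerate kinase pgk1 (chromosome 21, 37445871 to 37463555, plus strand) had 331, 350, 374 and 626 CPM in controls and 437, 479, 426 and 436 CPM at Cd 24 ug/L. In CPM the Cd 24 ug/L libraries lay above controls 1 to 3 and below control replicate 4. By TPM they lay above every control, at 258 to 282 against 188 to 230. Its log2 fold change was 0.08 ± 0.15 (adjusted p = 0.855) with all libraries and 0.34 ± 0.07 (adjusted p = 0.00236) without the pair. It had 382, 357, 565 and 393 CPM at Cd 2.4 ug/L, 392, 374, 377 and 374 CPM at Cd 12 ug/L, 378, 360, 398 and 394 CPM at PCB126 0.08 nM, 382, 373, 374 and 383 CPM at 0.4 nM, and 310, 350, 327 and 411 CPM at 0.8 nM. These groups overlapped the controls.

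Phosphoglycerate mutase and enolase prepare the last energy-rich intermediate. The gene pgam1b, a broadly used mutase, stood at 93.2, 97.3, 95 and 122 CPM in controls and at 84.3, 82.1, 82.6 and 84.4 CPM at PCB126 0.8 nM, below every library of the other 6 groups. It fell by 0.29 ± 0.08 at that dose (adjusted p = 0.031), and by 0.19 ± 0.04 without the pair (adjusted p = 0.00532). With limma on log2(TPM + 1) and all libraries the value was -0.05 (adjusted p = 0.848). An edgeR fit of only the groups compared did not call the fall (adjusted p = 0.4965). By TPM, control replicate 4 stood at 51.3, below every library at PCB126 0.8 nM (67.4 to 75.9). The call with all libraries ended without control replicate 4 or any library of the exposed group, with falls of 0.19 to 0.33 over the 28 omissions and a highest adjusted p of 0.122. In the other groups pgam1b had 99.3, 91.2, 111 and 93.3 CPM at Cd 2.4 ug/L, 91.8, 89.2, 92.1 and 90.6 CPM at Cd 12 ug/L, and 100.1, 92.4, 90.4 and 96.4 CPM at Cd 24 ug/L. At PCB126 0.08 nM it had 95.2, 94.3, 97.1 and 103 CPM and at 0.4 nM 97.9, 92.0, 93.1 and 92.4 CPM.

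The muscle mutase pgam2 had 76.9, 74.5, 96.0 and 214 CPM in controls and 117, 148, 115 and 116 CPM at Cd 24 ug/L. By TPM it stood at 245 to 309 at Cd 24 ug/L, above every control at 164 to 228. Its log2 fold change was 0.11 ± 0.24 (adjusted p = 0.885) with all libraries and 0.60 ± 0.11 (adjusted p = 0.00174) without the pair. The gene overlaps rpl17 on the opposite strand, which held 418444 counts against 40339 for pgam2, so reads of these genes cannot be told apart if strand was not used. The log2 fold change of rpl17 without the pair was -0.00. The muscle enolase eno3 was 0.29 ± 0.07 higher at Cd 24 ug/L without the pair (adjusted p = 0.0134) and -0.28 ± 0.27 with all libraries (adjusted p = 0.687), where control replicate 4 stood at 1701 CPM against 547 to 611 CPM in the other controls. By TPM eno3 at Cd 24 ug/L, at 355 to 397, overlapped the controls at 304 to 456. The broadly used eno1b fell by 0.21 ± 0.06 at PCB126 0.8 nM without the pair (adjusted p = 0.0269). The neuronal eno2 and the mutase pgam1a were called against control in no group. The overlapping AL772314.1, on the opposite strand, held 14.8% of the counts of eno2.

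Pyruvate kinase closes the pathway. The gene pkmb had 610, 561, 640 and 1103 CPM in controls and 804, 988, 816 and 844 CPM at Cd 24 ug/L, a log2 fold change of 0.25 ± 0.16 (adjusted p = 0.543) with all libraries and 0.52 ± 0.09 (adjusted p = 0.000856) without the pair. By TPM pkmb stood at 603 to 721 at Cd 24 ug/L, above every control at 410 to 486. Its copy pkma had 274, 278, 263 and 335 CPM in controls. It had 325, 344, 340 and 322 CPM at Cd 24 ug/L and 283, 332, 344 and 346 CPM at PCB126 0.8 nM. Without the pair pkma was 0.30 ± 0.06 higher at Cd 24 ug/L (adjusted p = 0.00198), 0.24 ± 0.06 at PCB126 0.4 nM (adjusted p = 0.0122) and 0.27 ± 0.06 at PCB126 0.8 nM (adjusted p = 0.00276). With all libraries none of these passed the threshold. The overlapping zgc:101723, on the opposite strand, held 15.1% of the counts of pkma, which matters where strand was not used.

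Lactate dehydrogenase turns pyruvate into lactate and back, with ldha as the muscle type and ldhba and ldhbb as copies of the heart type. The gene ldha had 201, 202, 223 and 268 CPM in controls and 303, 368, 314 and 268 CPM at Cd 24 ug/L. By TPM it stood at 267 to 366 at Cd 24 ug/L, above every control at 136 to 231. The log2 fold change was 0.49 ± 0.13 (adjusted p = 0.0728) with all libraries and 0.59 ± 0.11 (adjusted p = 0.00141), 1.5-fold, without the pair. The more abundant ldhba was 0.19 ± 0.05 higher without the pair (adjusted p = 0.0328), called in 6 of 11 further omissions. The gene ldhbb had 31.0, 31.6, 36.5 and 55.4 CPM in controls and 38.7, 65.3, 66.7 and 57.4 CPM at PCB126 0.8 nM. There its log2 fold change was 0.57 ± 0.19 (adjusted p = 0.0954) with all libraries and 0.79 ± 0.13 (adjusted p = 0.000179), 1.73-fold, without the pair.

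The transporter slc16a3 (chromosome 12, 33350256 to 33359654, minus strand), which exports lactate from glycolytic cells in mammals, had 23.7, 24.6, 27.4 and 22.5 CPM in controls, 27.6, 24.1, 23.7 and 30.3 CPM at Cd 2.4 ug/L, 29.1, 30.7, 30.9 and 29.9 CPM at Cd 12 ug/L, and 38.1, 39.9, 35.9 and 37.4 CPM at Cd 24 ug/L. The 2 upper Cd doses lay wholly above the controls, and the top dose lay above every other library of the series. The PCB126 groups had 28.5, 31.8, 31.5 and 34.1 CPM at 0.08 nM, 35.1, 34.0, 29.8 and 30.6 CPM at 0.4 nM, and 22.8, 32.3, 30.4 and 33.3 CPM at 0.8 nM. It rose by 0.62 ± 0.10 on the log2 scale at Cd 24 ug/L, 1.54-fold (adjusted p = 0.00158), and by 0.59 ± 0.10 without the pair (adjusted p = 0.000525). With all libraries limma on log2(TPM + 1) did not call this rise (adjusted p = 0.0759). Nor did an edgeR fit of only the groups compared (adjusted p = 0.127). Without the pair slc16a3 was also higher at PCB126 0.08 nM, by 0.33 ± 0.10 (adjusted p = 0.0427), and at 0.4 nM, by 0.37 ± 0.10 (adjusted p = 0.0349). At PCB126 0.8 nM, with 1 library at the control level, the value was 0.24 ± 0.10 (adjusted p = 0.152).

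**Figure D3:**
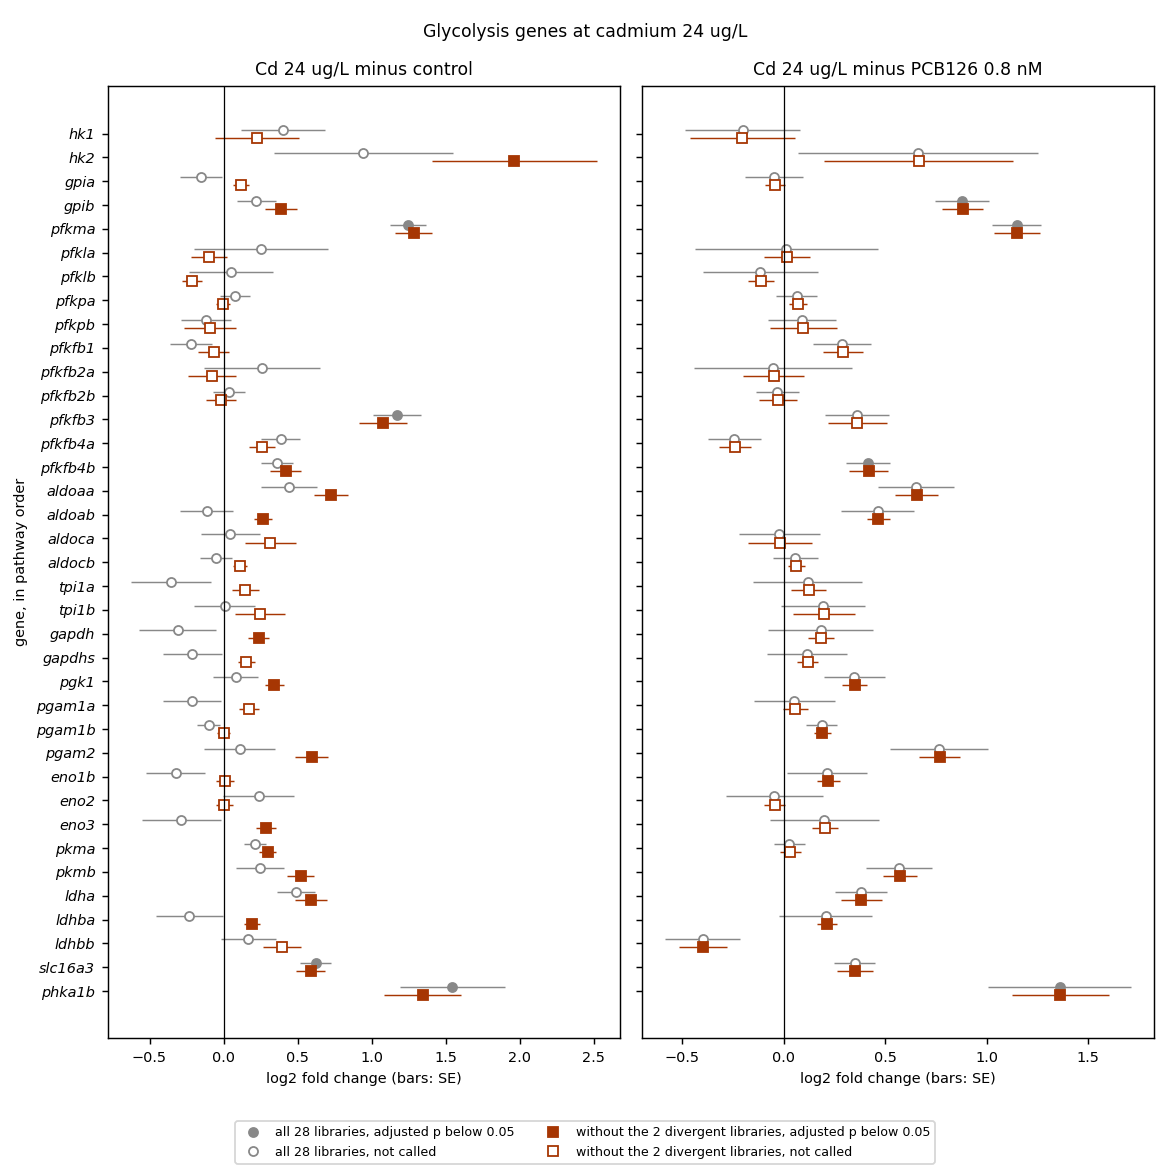
Log2 fold change with its standard error (horizontal axes) of tested glycolysis genes in pathway order, at Cd 24 ug/L against control and against PCB126 0.8 nM, with all 28 libraries and without the divergent pair. Filled marks have an edgeR adjusted p below 0.05. Against control 4 marks are filled with all libraries and 17 without the pair, all to the right of 0.

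Grouped by isoform, the calls at Cd 24 ug/L fell unevenly. Of the 7 tested muscle-type genes (pfkma, aldoaa, aldoab, pgam2, eno3, ldha and phka1b), 2 were called higher by edgeR with all libraries, beside 0.922% of all genes, with a median log2 fold change of 0.44, while DESeq2 called 3 and limma 5. The shares of all genes called by DESeq2 and limma are not given, so their counts do not set the muscle types apart from other genes. The 2 called by edgeR were pfkma and phka1b, the latter added to the set by name. Without the pair 7 were called, beside 5.08% of all genes, with a median of 0.60 and a range of 0.27 to 1.34. Of the 11 tested brain, heart or broadly used types, none was called with all libraries by edgeR, DESeq2 or limma, and none had an unadjusted p below 0.05 in edgeR. Without the pair 1, ldhba, was called, and the medians were -0.05 and 0.11. The other calls at Cd 24 ug/L lay in genes without a class, pfkfb3 and slc16a3 with all libraries. Without the pair gapdh, pkmb, pkma, pgk1, pfkfb4b, gpib and hk2, also without a class, were called as well. Genes without a class were not sorted by tissue, so their calls do not show whether the rise went beyond muscle types. At PCB126 0.8 nM the muscle types had none called by edgeR with all libraries (median -0.21), 2 below an unadjusted p of 0.05, and 1 called lower by DESeq2 and by limma. Without the pair 1, aldoab, was called lower (median 0.07). At Cd 12 ug/L their median was -0.17 with all libraries and 0.14 without the pair, with pfkma called in the latter. The classes were set by ortholog names and their difference was not tested.

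The share of each isoform in the summed TPM of its step is a ratio within a library, in which scaling between libraries cancels. In controls 1 to 3, pfkma held 25.9 ± 3.08% (SD, n = 3) of phosphofructokinase TPM, behind pfkpa with 31.8 ± 0.62% and pfklb with 27 ± 1.59%. The pfkma share was 36.1 ± 0.62% (SD, n = 4) at Cd 12 ug/L and 47.6 ± 3.31% at Cd 24 ug/L, and 29.1 ± 2.43% at PCB126 0.8 nM. The ranges were 22.6 to 28.6% in those controls, 35.4 to 36.8% at Cd 12 ug/L and 45.3 to 52.5% at Cd 24 ug/L, with no overlap. Control replicate 4 had a pfkma share of 42.0% and Cd 2.4 ug/L replicate 3 one of 49.5%, beside their low pfkla and pfklb.

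The share of ldha in lactate dehydrogenase TPM was 26.4 ± 0.69% in controls 1 to 3 and 16.6% in control replicate 4, and it was 31.8 ± 2.70% (SD, n = 4) at Cd 24 ug/L. The share of ldhbb was 5.11 ± 0.31% in controls 1 to 3, 4.21% in control replicate 4, 5.39 ± 0.20% at Cd 24 ug/L and 8.25 ± 1.76% at PCB126 0.8 nM. For glucose-6-phosphate isomerase the share of gpib was 26.1 ± 0.88% in controls 1 to 3, 22.6% in control replicate 4, 29.9 ± 2.43% at Cd 24 ug/L and 18.4 ± 0.62% at PCB126 0.8 nM. These shares were not tested.

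**Figure D4:**
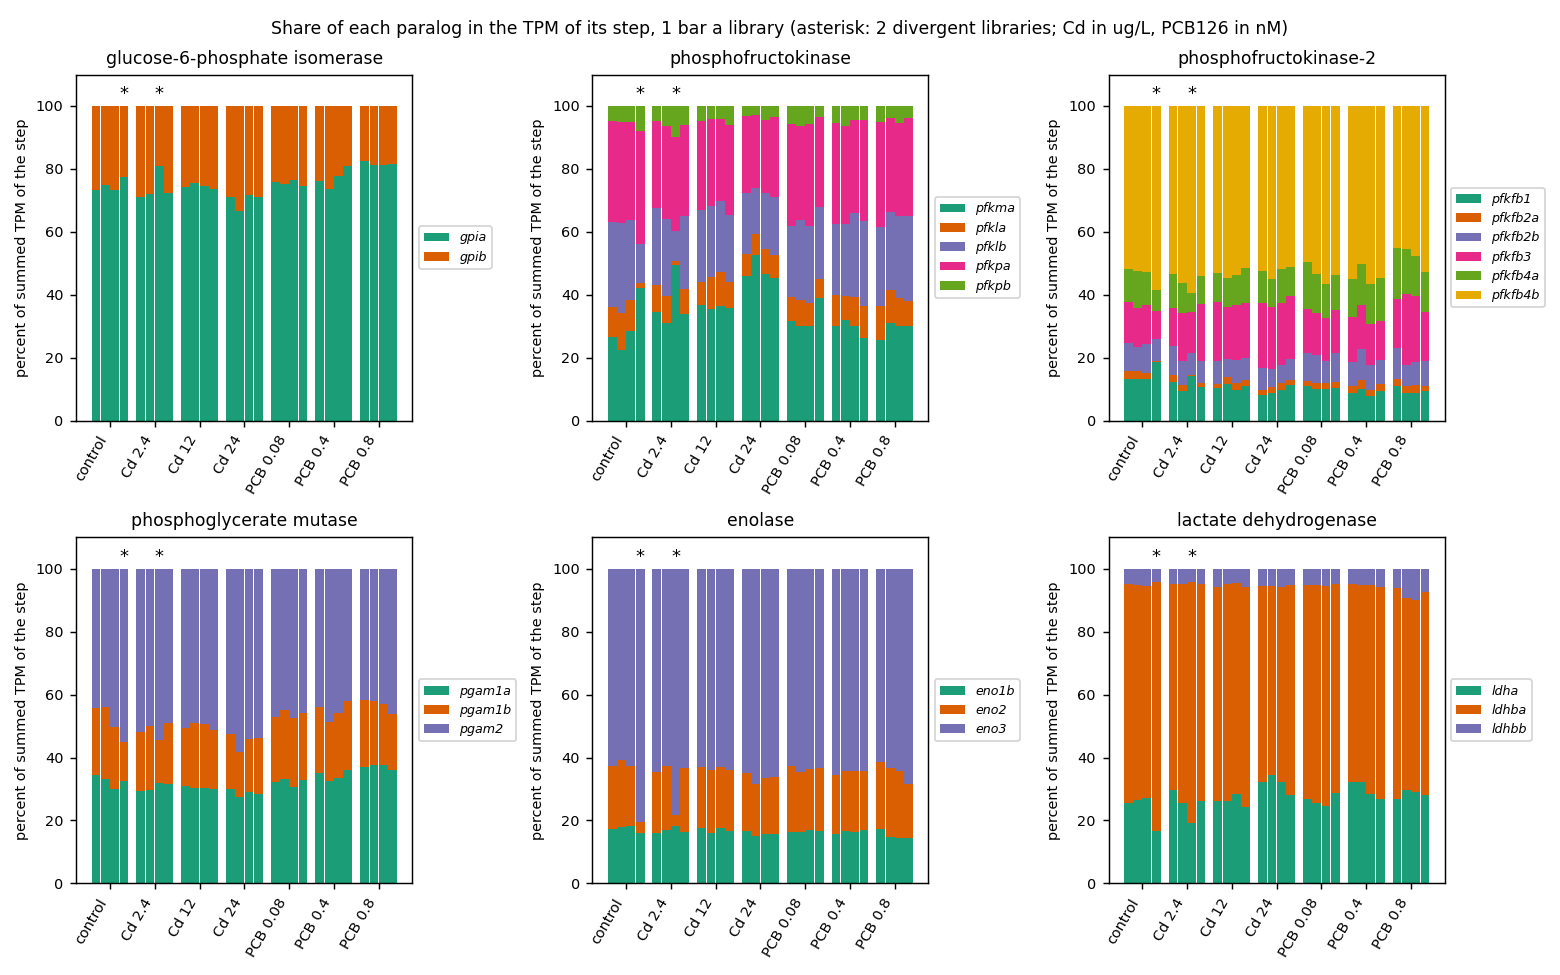
Share in percent of each isoform in the summed TPM of its step (vertical axes), for 6 steps, with 1 stacked bar per library ordered by group. Asterisks mark control replicate 4 and Cd 2.4 ug/L replicate 3. The pfkma share runs from 22.6 to 28.6% in controls 1 to 3 up to 45.3 to 52.5% at Cd 24 ug/L.

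Set against each other, the top doses differed at pfkma, gpib, phka1b and pfkfb4b. These 4 of the 38 genes were called higher at Cd 24 ug/L than at PCB126 0.8 nM with all libraries, beside 1.74% of all genes, 0.736% higher, with log2 differences of 1.15 ± 0.12, 0.88 ± 0.13, 1.36 ± 0.35 and 0.41 ± 0.11 (adjusted p = 9.15e-07, 0.000169, 0.0429 and 0.0456). The calls of phka1b and pfkfb4b ended in 20 and 21 of the 28 single omissions, with differences of 1.17 to 1.51 and 0.35 to 0.45 over the omissions and highest adjusted p of 0.184 and 0.231. The phka1b call held only without control replicates 1 or 4, Cd 2.4 ug/L replicates 1, 2 or 3, Cd 12 ug/L replicate 3, Cd 24 ug/L replicate 4 or PCB126 0.08 nM replicate 4. The pfkfb4b call held only without control replicate 4, Cd 2.4 ug/L replicates 1 or 3, Cd 24 ug/L replicate 3, PCB126 0.08 nM replicates 1 or 3 or PCB126 0.4 nM replicate 2. Neither of these groups holds a library of the divergent pair, which enters this comparison through the shared estimate of spread. Without the pair 15 genes were called, beside 6.57% of all genes, 3.46% higher and 3.11% lower: 14 higher at Cd 24 ug/L and ldhbb lower, and a fit of those 8 libraries alone called 10, all higher. The share of all genes called in the fit of 8 libraries is not given, so its count does not set the glycolysis genes apart. The ldhbb call without the pair held in 4 of 11 further omissions, with a highest adjusted p of 0.162. Among the 14, aldoaa differed by 0.65 ± 0.11, aldoab by 0.47 ± 0.06, pgam2 by 0.77 ± 0.10 and pkmb by 0.57 ± 0.08.

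Within each chemical, the highest and lowest doses were also compared. Between Cd 24 and 2.4 ug/L, pfkma and slc16a3 were called higher at the top dose with all libraries, beside 0.52% of all genes, 0.236% higher, by 0.90 ± 0.12 and 0.52 ± 0.10 (adjusted p = 0.000506 and 0.0221). The slc16a3 call ended without Cd 2.4 ug/L replicates 2 or 3 or any Cd 24 ug/L library, with differences of 0.47 to 0.58 over the omissions and a highest adjusted p of 0.0955. Without the pair 7 genes were called, all higher, beside 3.79% of all genes, 2.05% higher. Between PCB126 0.8 and 0.08 nM, edgeR called none with all libraries, beside 1.02% of all genes, with 4 below an unadjusted p of 0.05, while DESeq2 and limma called 1 each. Without the pair 7 were called, 2 higher and 5 lower, beside 11% of all genes, 6.11% higher and 4.87% lower. Among them gpib fell by 0.43 ± 0.10, aldoab by 0.27 ± 0.06 and pgam1b by 0.23 ± 0.04 from the low to the high dose, and ldhbb rose by 0.67 ± 0.12.

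Markers of fast muscle, the tissue of the muscle-type isoforms, had lower medians than those isoforms at both top doses. With all libraries, 0 of 25 tested markers were called by edgeR, DESeq2 or limma at Cd 24 ug/L (median log2 fold change -0.21), beside 0.922% of all genes in edgeR. In edgeR 1 lay below an unadjusted p of 0.05. Without the pair 3 of 26 were called higher (median 0.10), beside 5.08% of all genes in either direction: acta1b, mylpfb and tnni2b.2, by 0.30, 0.21 and 0.25. At PCB126 0.8 nM 2 of 25 were called lower with all libraries (median -0.46), beside 3.49% of all genes in either direction. Without the pair 1 was called higher and 5 lower of 26 (median -0.08), beside 8.73%. Among the 5 called lower without the pair, mybpc2b, a thick filament protein of fast muscle, was 0.63 lower. Between the top doses, 12 of 26 fast markers were called higher at Cd 24 ug/L without the pair, beside 6.57% of all genes in either direction. The median difference of the 26 was 0.14, against 0.65 for the 7 muscle-type glycolysis genes. The summed level of the fast markers ran from 85455 to 93884 CPM at Cd 24 ug/L and from 70041 to 83522 CPM at PCB126 0.8 nM, against 80849 to 82957 CPM in control replicates 1 to 3 and 184423 CPM in control replicate 4. The part of muscle content in these results was not tested.

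Genes around glycolysis were described from lists drawn up with earlier results of these data known. At Cd 24 ug/L 3 of 22 glycogen genes were called by edgeR, all higher, with all libraries, beside 0.922% of all genes. DESeq2 called 5 higher and 1 lower of 21, and limma 1 higher of 22. The 3 called by edgeR were phkg1b, the catalytic partner of phka1b, by 0.86 ± 0.13, the debranching enzyme aglb by 0.76 ± 0.18 and glycogen synthase gys1 by 0.42 ± 0.08. Without the pair they rose by 0.80 ± 0.13, 0.59 ± 0.11 and 0.39 ± 0.07, and pygma, the muscle glycogen phosphorylase, was also called, by 0.72 ± 0.20, beside 5.08% of all genes. At PCB126 0.8 nM the 2 genes called of 22, beside 3.49% of all genes, were the liver-type pygl and phka2, which rose by 0.91 ± 0.13 and 0.68 ± 0.14, and by 1.1 ± 0.10 and 0.53 ± 0.11 without the pair. With all libraries DESeq2 called 3 of the list higher at PCB126 0.8 nM, and limma 1 higher. Between the top doses pygl was 1.11 ± 0.13 lower and pygma 0.85 ± 0.19 higher at Cd 24 ug/L with all libraries (adjusted p = 5.82e-06 and 0.0161).

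Hepatocyte markers were also described at PCB126 0.8 nM, where DESeq2 and limma called 0 of the 3 tested liver-type glycolysis genes with all libraries. Of 11 tested markers, edgeR called 1 higher with all libraries, cp, by 0.57 ± 0.11 (median of the list 0.20), beside 3.49% of all genes in either direction. DESeq2 called 2 higher and 1 lower and limma 4 higher. Without the pair 7 were called higher (median 0.40), beside 8.73% of all genes in either direction, among them cp by 0.73 ± 0.09 and fgg by 0.70 ± 0.13. The summed level of these markers ran from 9463 to 11104 CPM at PCB126 0.8 nM, against 7610 to 8167 CPM in control replicates 1 to 3 and 15351 CPM in control replicate 4. At Cd 24 ug/L it ran from 8335 to 8720 CPM, with 1 of 11 called higher with all libraries (median -0.45), beside 0.922% of all genes. Without the pair 2 were called higher and 2 lower (median 0.07), beside 5.08%. The part of liver content in these results was not tested.

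Genes of glucose entry and production were called at both top doses. The liver glucokinase gck had log2 fold changes of -1.98 ± 0.48 at Cd 24 ug/L and -1.96 ± 0.48 at PCB126 0.8 nM (adjusted p = 0.0448 and 0.0189), and of -1.82 ± 0.48 and -1.81 ± 0.48 without the pair. The glucose transporter slc2a3a rose by 0.42 ± 0.09 and 0.36 ± 0.09, and by 0.32 ± 0.06 and 0.26 ± 0.06 without the pair. They were the 2 genes called by edgeR of 14 in each comparison with all libraries, beside 0.922% and 3.49% of all genes. DESeq2 called 1 higher and 1 lower at each dose. Limma called 0 at Cd 24 ug/L and 1, lower, at PCB126 0.8 nM. Gluconeogenesis runs the pathway backwards, and 2 of its 10 tested genes were called at each top dose, beside 0.922% and 3.49% of all genes. DESeq2 called 2 at each, and limma 1 at Cd 24 ug/L and 2 at PCB126 0.8 nM. Among those called by edgeR, pck1 rose by 0.89 ± 0.16 and 0.83 ± 0.16, and by 1.09 ± 0.14 and 1.03 ± 0.14 without the pair. Both comparisons share the 4 controls.

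Of 21 genes of pyruvate fate, 2 were called at Cd 24 ug/L with all libraries, beside 0.922% of all genes. The gene pdk2b, for a kinase that holds pyruvate back from oxidation, rose by 1.32 ± 0.21, and by 1.39 ± 0.22 without the pair. The liver pyruvate kinase pklr fell by 1.2 ± 0.29, and by 0.64 ± 0.15 without the pair. At PCB126 0.8 nM edgeR, DESeq2 and limma called none of these 21 with all libraries, 6 had an unadjusted p below 0.05 in edgeR, and 1 was called without the pair, beside 8.73% of all genes. Of 30 hypoxia genes 4 were called higher at Cd 24 ug/L, beside 0.922% of all genes, among them epas1a by 0.55 ± 0.09 and vegfaa by 0.48 ± 0.10. Without the pair these 2 rose by 0.45 ± 0.07 and 0.51 ± 0.09, and 5 of the list were called higher and 1 lower, beside 5.08% of all genes. For PCB126 at 0.8 nM 8 were called higher, beside 3.49% of all genes, among them egln1a by 1.86 ± 0.25, and by 1.75 ± 0.19 without the pair, where 11 were called higher and 1 lower, beside 8.73%.

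**Figure D5:**
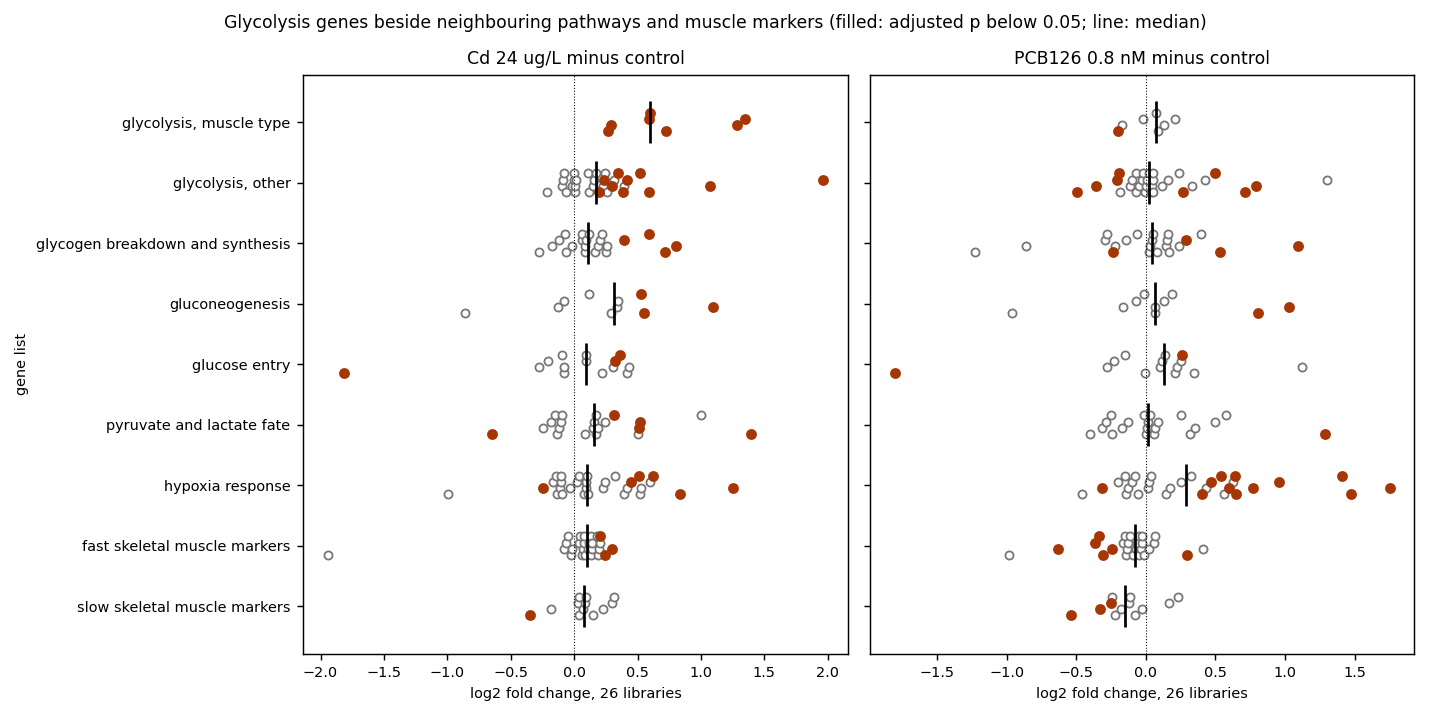
Log2 fold change in the 26 libraries without the divergent pair (horizontal axes) of each tested gene of 9 lists, at Cd 24 ug/L (left) and PCB126 0.8 nM (right) against control. Filled points have an edgeR adjusted p below 0.05 and the vertical line is the median of the list. The median of the muscle-type glycolysis genes lies at 0.60 on the left and 0.07 on the right, and that of the fast muscle markers at 0.10 and -0.08.

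A light-responsive clock gene, per2, also moved with the groups. Of 9 tested light-induced clock genes, DESeq2 called 2 higher at each Cd dose with all libraries. It called 3, 3 and 4 higher at the rising PCB126 doses, and 1 lower at 0.8 nM. The log2 fold change of per2 against control was 1.63 at Cd 2.4 ug/L, 2.39 at 12 ug/L and 2.82 at 24 ug/L, and 3.01, 3.30 and 3.48 at the rising PCB126 doses. Without the pair these were 1.71, 2.35 and 2.79, and 2.98, 3.27 and 3.44. Log2 fold changes above 0 that grew with each dose were then counted for the glycolysis genes, a count chosen after the data were seen. Over the Cd doses 6 of the 38 had them with all libraries, beside 6.3% of all genes: hk2, pfkfb3, pfkfb4a, pfkma, phka1b and slc16a3. Without the pair 10 had them, beside 7.4% of all genes, with phka1b no longer among them. Over the PCB126 doses they were pfkfb4a and pkma with all libraries, beside 8.05% of all genes, and 5 genes without the pair, beside 6.22%, pfkfb4a and pkma again among them. Collection time is not stated, and its part in the results on glycolysis was not tested.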

How the data were processed

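Polyadenylated RNA of 28 libraries from whole larvae was analysed as deposited. The count table holds raw counts per gene for 38318 genes, not normalised, per the file headers and values. HISAT2 2.0.5, featureCounts 1.5.0-p3 and the build GRCz11 are named in the submitters' processing notes, and the annotation release is not given in the sources used here. The authors' TPM table holds 27475 genes, and a recalculation of TPM out of raw counts with the supplied lengths matched it (largest relative deviation 5.33e-15). The deposited gene length, in bases, served for this. Per the labels' protocols the libraries may have been directional or not, so strand is unknown.

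The quasi-likelihood test of edgeR 4.0.16 (R 4.3.3, two-sided) was run in a single fit of the 7 groups, after a filterByExpr filter and TMM scaling. Adjustment was by Benjamini-Hochberg over 25393 tested genes (25610 without the divergent pair), with a threshold of 0.05. CPM values are counts over the library total times its TMM factor. Errors are SE for log2 fold changes and SD for levels. In 9 comparisons, the exposed groups were set against control, the ends of each dose series against each other, and so were the top doses. Alternatives were DESeq2 1.42.0, its size factors, 2 other filters, limma 3.58.1 on log2(TPM + 1), only the groups compared, a replicate block, each library left out, and the pair left out, alone or, as chosen after seeing the data, with 1 further library. Shares of all genes called are given for edgeR with all libraries and without the pair, and not for the other tools or settings. Counts by those do not set the listed genes apart from other genes. The procedure was tested on simulated data.

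The members, the lists and the choice of genes were made with earlier results of these data known. Values in every library were given for pfkma, pfkfb3, aldoaa, aldoab, pgk1, phka1b, slc16a3 and each member called in a comparison of 2 groups, and other genes of a list only where called, at most 4 for each list and comparison. All 40 gene IDs matched the supplied name table, and symbols are those of the count table. The values of 1 member are not reported here, though it is in the counts over all members. Same-numbered libraries did not deviate together (correlations of -0.647 to 0.595, every pair over 0.1 in 0 of 9 comparisons), so numbers were not used to pair libraries.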

Additional observations from a re-analysis of the deposited data

Results flagged for a closer look

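In 7 of the 84 groups of 4 libraries examined (12 genes in 7 groups), 1 library lay far from the other 3 by Dixon's test, where chance gives about 1 in 20. Of these, 5 lay in the divergent pair. In control replicate 4, aldoab stood at 1652.1 CPM against 740 to 774 in the other controls, pgk1 at 625.755 against 331 to 374, pgam1b at 121.573 against 93.2 to 97.3, and pfkfb1 at 23.8218 against 16.0 to 16.6. At aldoab this library lay above the other controls by TPM too, at 1143 against 1064 to 1095. At the other genes the direction depended on the scaling. By TPM this library lay below the other controls at pgk1 (188 against 206 to 230), pgam1b (51.3 against 81.7 to 85.1) and pfkfb1 (14.3 against 19.6 to 20.7). In Cd 2.4 ug/L replicate 3, aldoab stood at 1294.58 CPM against 889 to 925. The remaining 2 lay elsewhere: gpib at 91.6824 CPM in Cd 24 ug/L replicate 2 against 70.2 to 72.6, and pfkfb1 at 13.5081 CPM in PCB126 0.8 nM replicate 1 against 12.4 to 12.6.

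The response to the top dose of Cd differed from that to the top dose of PCB126 at 4 genes, by the direct edgeR test between the 2 groups, which share their controls. The log2 differences, Cd minus PCB126, were 1.14793 for pfkma, 1.35962 for phka1b, 0.878879 for gpib and 0.414943 for pfkfb4b.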

How the results depend on the processing

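Leaving out control replicate 4 and Cd 2.4 ug/L replicate 3 changed most counts of called glycolysis genes: to 2 at Cd 12 ug/L, 17 at Cd 24 ug/L, 4 at PCB126 0.08 nM, 4 at 0.4 nM and 9 at 0.8 nM, and to 7 for Cd 24 against 2.4 ug/L, 7 for PCB126 0.8 against 0.08 nM, 15 for Cd 24 ug/L against PCB126 0.8 nM and 24 for any difference. With only the groups compared the counts were 0 at Cd 12 ug/L, 2 at Cd 24 ug/L, 0 at PCB126 0.4 nM, 0 at PCB126 0.8 nM, 0 between Cd doses, 6 between PCB126 doses and 10 between chemicals. DESeq2 gave 2 at Cd 12 ug/L, 3 at PCB126 0.4 nM, 4 between Cd doses, 1 between PCB126 doses and 7 between chemicals, and limma 0, 0, 5, 1 and 7 for the same and 8 at Cd 24 ug/L. Without a filter 2 were called between chemicals. The cause was not tested. The shares of all genes called without the pair are given above, and those of the other settings in this section are not given. Their counts therefore do not set the glycolysis genes apart from other genes.

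Leaving out each library in turn gave counts of 0 to 1 at Cd 2.4 ug/L, 1 to 2 at 12 ug/L and 3 to 7 at 24 ug/L, 0 to 3 at PCB126 0.4 nM and 3 to 8 at 0.8 nM, 1 to 5 between Cd doses, 0 to 3 between PCB126 doses, 2 to 8 between chemicals and 4 to 16 for any difference. With the pair and 1 further library left out they were 10 to 18 at Cd 24 ug/L, 6 to 10 at PCB126 0.8 nM and 12 to 17 between chemicals. The genes pkmb, aldoaa, pgk1, pkma, ldha, pfkma, pgam2, pfkfb3, slc16a3 and phka1b were called at Cd 24 ug/L in all 11 of these. No call turned its direction: of 136 planned repeats of the 17 calls, 109 held and 27 passed no longer, and of 476 single omissions 394 and 82.

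With replicate number as a block the counts were 0, 1 and 4 at the rising Cd doses, 0, 1 and 4 at the rising PCB126 doses, 2 between Cd doses, 0 between PCB126 doses, 3 between chemicals and 6 for any difference. Size factors moved the median of all genes by under 0.1 log2 units. Low counts limit phka1b and hk2, and the number of larvae per library is not given in the sources used here.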
